A study of Mus musculus with 4 samples.

Results

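Star-strand and arm-named mouse miRNAs are the rows of the array whose mouse name ends in * or in the arm suffix 5p or 3p. The name alone chose them, and 119 of the 417 mouse rows qualified: 54 ended in *, 34 in 5p and 31 in 3p. The choice left out 13 further arm-named rows, those of the miR-467 and miR-125 families with miR-466d-3p, miR-99b*, miR-183*, miR-129-5p, miR-693-5p, miR-340-5p, miR-675-5p and miR-770-3p. Of these 13, 12 were measured in at least 1 line, so every share of measured members given here was lowered by that choice.

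Total RNA from 4 mouse hepatocarcinoma lines, with 1 array for each line, was labelled with Hy3 and hybridised to the miRCURY array of Exiqon, on which probes containing locked nucleic acids bind mature miRNAs. Hca-F has a higher and Hca-P a lower lymphatic metastasis ability. Both descend from H22, and the labels have them grown for about a week in the abdominal cavity of 615 mice, then enriched from ascites and cultured in RPMI-1640 with fetal bovine serum. H22, a suspension line like both, and Hepa1-6, which adheres and was kept in DMEM with the same serum, have no lymphatic metastasis ability per the labels. No line was treated. The sources used here give neither the culture of H22 nor whether any line is 1 clone. None of 5 hepatocyte miRNAs with a probe (miR-122, miR-192, miR-194, miR-148a and miR-101a) was measured in any line, and miR-122, the dominant miRNA of normal hepatocytes, reached at most 33 units, in Hepa1-6.

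A miRNA hairpin is cut by Drosha and Dicer into a short duplex of its 5′ and 3′ arms. One strand, the guide, is loaded into an Argonaute protein, while the passenger strand is usually degraded, so both arms come from the same transcript but often accumulate very unequally. Older miRNA catalogues marked the less abundant strand with a star, and used 5p and 3p where neither strand was clearly the minor one. Bases 2 to 8 of a mature miRNA form the seed that pairs with target mRNAs, so the 2 arms of a hairpin address different targets.

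Of the 119 members, 6 were measured in at least 1 line, and the mature sequences of the 5 found in RefSeq are printed beside those of their opposite arms to show what each pair of probes had to tell apart. Coordinates are those of build GRCm38.p6, and capitals mark the seed. The names miR-200b*, miR-200b, miR-142-5p and miR-142-3p of the array correspond to miR-200b-5p, miR-200b-3p, miR-142a-5p and miR-142a-3p in RefSeq. The sixth measured member is miR-712*.
miR-423-5p: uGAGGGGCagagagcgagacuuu
miR-423-3p: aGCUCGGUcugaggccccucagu
miR-671-5p: aGGAAGCCcuggaggggcuggag
miR-671-3p: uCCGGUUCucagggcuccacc
miR-338-5p: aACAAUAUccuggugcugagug
miR-338-3p: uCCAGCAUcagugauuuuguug
miR-200b*: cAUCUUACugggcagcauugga
miR-200b: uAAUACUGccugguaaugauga
miR-142-5p: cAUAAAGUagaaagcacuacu
miR-142-3p: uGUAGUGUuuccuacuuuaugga

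The hairpins that carry them are shown with the measured arm in capitals. All 5 measured arms are the 5′ arm of their hairpin, but the choice of rows had left out measured 3p rows such as miR-125b-3p.
Mir423: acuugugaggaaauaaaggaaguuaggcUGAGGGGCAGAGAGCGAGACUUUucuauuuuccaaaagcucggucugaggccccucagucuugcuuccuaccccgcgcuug
Mir671: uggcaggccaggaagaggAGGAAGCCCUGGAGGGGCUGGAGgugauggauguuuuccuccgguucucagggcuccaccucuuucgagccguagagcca
Mir338: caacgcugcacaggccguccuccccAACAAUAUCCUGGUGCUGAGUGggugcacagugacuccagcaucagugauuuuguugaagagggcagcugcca
Mir200b: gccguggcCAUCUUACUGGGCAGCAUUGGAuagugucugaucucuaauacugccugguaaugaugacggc
Mir142: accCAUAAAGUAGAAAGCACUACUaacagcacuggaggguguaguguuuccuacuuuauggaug

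In the RefSeq annotation, Mir423 lies at chr11:77078064-77078172 on the minus strand, inside the span of the protein-coding gene Nsrp1. Mir671 lies at chr5:24592114-24592211 on the plus strand, inside Chpf2. Mir338 lies at chr11:120014765-120014862 on the minus strand, inside Aatk, and overlaps Mir3065 on the other strand. Mir200b lies at chr4:156055681-156055750 on the minus strand, inside the long noncoding RNA gene Gm13648, with Mir200a and Mir429 within 10 kb on the same strand. Mir142 lies at chr11:87756864-87756927 on the plus strand and overlaps Mir142b on the minus strand. Whether these hairpins are exonic or intronic was not examined. No 2 of the 5 measured arms shared a seed. The only other mouse miRNA in RefSeq with the seed of miR-200b*, AUCUUAC, was miR-200a-5p, the star strand of miR-200a. miR-6921-5p shared the seed of miR-423-5p, GAGGGGC, and had no probe by this name. For miR-671-5p, miR-338-5p and miR-142-5p RefSeq held no other mouse miRNA with the seed. Over the members named 5p or 3p, RefSeq held 53 of 65, and the 4 measured ones had a GC content of 33.3% to 69.6%, within the 23.8% to 70% of the 49 never measured.

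A member counted as measured in a line when the mean background-subtracted intensity of its 4 spots was 50 scanner units or more, the minimum the labels give. Measured members numbered 3 in Hca-F, 4 in Hca-P, 4 in H22 and 2 in Hepa1-6, or 5.04% in any line. Over all 414 mouse miRNAs 24.9% were measured in any line, over those that are not members 32.9%, and over all 132 arm-named rows, the 13 left out included, 13.6%. By name, 4 of 34 members ending in 5p, 2 of 54 ending in * and none of 31 ending in 3p were measured. The rows left out include measured ones ending in 3p, such as miR-125b-3p at 66.8 units in Hca-P. The split by name thus also depends on the choice of rows. Of the others, 9 reached 30 to under 50 units, 10 reached 20 to under 30, 36 reached 10 to under 20, and 58 stayed under 10 in every line.

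**Figure D1:**
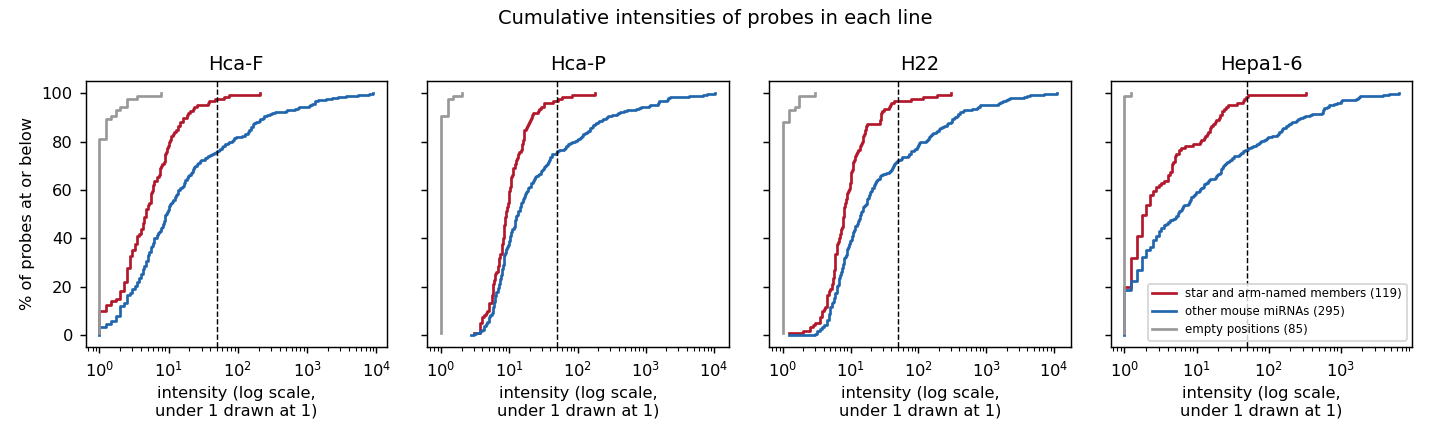
Cumulative share of probes (vertical axis, %) at or below a background-subtracted intensity (horizontal axis, scanner units, log scale, values under 1 drawn at 1) in each of the 4 arrays. Red is the 119 members, blue the other mouse miRNAs, grey the 85 empty positions, and the dashed line the minimum of 50. The member median was 4.75 units in Hca-F, 9 in Hca-P, 8 in H22 and 2 in Hepa1-6, and the red curve is almost complete before the dashed line in every line.

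The low values were not all at the level of bare glass. The brightest of 85 empty positions read 7.75 units, and 84 of the 119 members exceeded that in at least 1 line. The brightest of 80 spike-control positions read 27.2 units, and 18 members exceeded it. Of the 113 members never measured, 57 read highest in Hca-P, 35 in H22, 13 in Hca-F and 8 in Hepa1-6. The median of the 7 negative-control probes followed a like order, with 3.5 units in Hca-F, 5.5 in Hca-P, 5 in H22 and 1 in Hepa1-6, and the part of this offset in the dim values was not tested.

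miR-423-5p, a widely expressed miRNA that has been studied in human plasma as a marker of heart failure, was measured in all 4 lines. It read 209 ± 42.6 units in Hca-F, 180 ± 46.7 in Hca-P, 306 ± 134 in H22 and 331 ± 167 in Hepa1-6 (SD over 4 spots of 1 array, as for all errors that follow). The wide errors of H22 and Hepa1-6 came from 1 low spot in each, at 116 and 86 units, beside 3 spots of 311 or more in both. Divided by the scaling factor of each array, the level was 0.644 ± 0.131 in Hca-F, 0.454 ± 0.118 in Hca-P, 0.834 ± 0.365 in H22 and 0.819 ± 0.414 in Hepa1-6, where 1 is the median of 65 probes measured in all arrays. The lines overlapped in their spots, and with the mean of the spots no pair of lines was 2-fold apart. No pair was separated by 2 combined spot SDs, the root of the summed squares of both lines' SDs of the level. With the median of the spots, Hca-P was more than 2-fold lower than H22 (log2 fold -1.24) and Hepa1-6 (-1.22). miR-423-3p, from the same hairpin, read 5.5 units in Hca-F, 7.75 in Hca-P, 4.75 in H22 and 4 in Hepa1-6, so it stayed under 8 units throughout.

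miR-671-5p, known for directing cleavage of the circular RNA Cdr1as, was measured in H22 alone. Its intensity was 46.8 ± 13.6 in Hca-F, 44.2 ± 11.1 in Hca-P, 186 ± 76.8 in H22 and 43.8 ± 10.5 in Hepa1-6. The 4 spots of H22 read 91 to 279 units and those of the other lines 30 to 63, so H22 did not overlap with any other line. The level was at least 4.03-fold lower in Hca-P and at least 3.30-fold lower in Hca-F than in H22, and at least 4.10-fold higher in H22 than in Hepa1-6. Each of these differences was within 2 combined spot SDs, since the H22 spots spread widely. The combined SD takes the spots of both arrays as unrelated, though spot deviations went together at r = 0.653 between H22 and Hepa1-6. In spot order miR-671-5p read 91, 191, 185 and 279 units in H22 and 32, 46, 40 and 57 in Hepa1-6. miR-671-3p was measured in no line, at 12.8 units in Hca-F, 18.2 in Hca-P, 26.8 in H22 and 18.2 in Hepa1-6. Its highest value was thus also in H22, as for 35 of the 113 members never measured.

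miR-338-5p was likewise measured in H22 alone, and more evenly. The hairpin lies within Aatk, and its opposite strand miR-338-3p is the one known for roles in oligodendrocyte differentiation in mouse. miR-338-5p read 4.25 ± 4.57 units in Hca-F, 16.2 ± 8.62 in Hca-P, 118 ± 9.43 in H22 and 18.5 ± 7.85 in Hepa1-6. All 4 H22 spots lay above 100 units and all spots of the other lines at 1 to 30. The level was at least 2.55-fold lower in Hca-P and at least 2.09-fold lower in Hca-F than in H22, and at least 2.60-fold higher in H22 than in Hepa1-6, and all 3 differences exceeded 5 combined spot SDs. miR-338-3p read 38.5 ± 10.1 units in Hca-F, 32.2 ± 5.06 in Hca-P, 27 ± 3.92 in H22 and 48 ± 9.31 in Hepa1-6. It was thus under the minimum everywhere and lowest in H22, the line in which the other arm was measured.

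miR-712* was measured in both lines with lymphatic metastasis and in neither line without. Its intensity was 63.8 ± 31.1 units in Hca-F and 83.2 ± 8.26 in Hca-P, against 9.25 ± 4.03 in H22 and 15.2 ± 3.95 in Hepa1-6. Spots of Hca-F read 34 to 100, with 2 of 4 under the minimum, and those of Hca-P 75 to 94, while those of H22 read 5 to 14 and those of Hepa1-6 12 to 20, with no overlap between the 2 kinds of line. Because the detection floor lies close below these values, the bounds are small. The level in Hca-P was at least 1.54-fold that in H22 and at least 1.70-fold that in Hepa1-6, and in Hca-F at least 1.44-fold and 1.59-fold. The Hca-P bounds exceeded 2 combined spot SDs and the Hca-F bounds did not. Neither of 2 endothelial marker miRNAs was measured, and their summed intensity was 16 units in Hca-F, 20 in Hca-P, 12 in H22 and 6.25 in Hepa1-6. miR-712, the unstarred arm, is known in mouse endothelium as a product of the ribosomal RNA precursor, and it read 8.5 units in Hca-F, 10.2 in Hca-P, 9 in H22 and 3.5 in Hepa1-6.

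miR-200b* was the only member besides miR-423-5p that was measured in all 4 lines. The miR-200 family is known for repressing ZEB1 and ZEB2 and so keeping cells epithelial, a role assigned to the unstarred strands. miR-200b* read 74 ± 16.2 units in Hca-F, 52 ± 10.0 in Hca-P, 79 ± 18.8 in H22 and 51.5 ± 6.95 in Hepa1-6, which puts Hca-P and Hepa1-6 barely inside the minimum. Its level was 0.228 ± 0.0499 in Hca-F, 0.131 ± 0.0253 in Hca-P, 0.215 ± 0.0512 in H22 and 0.128 ± 0.0172 in Hepa1-6, and no pair was 2-fold apart or 2 combined spot SDs apart. The unstarred miR-200b was not measured, at 3.75 units in Hca-F, 9 in Hca-P, 17.5 in H22 and 47.5 in Hepa1-6. No other miRNA of the family was measured. miR-200a, a neighbour of miR-200b, reached at most 5 units, miR-200a* 7.75 and miR-429, from the same cluster, 7.75 in any line. From the other cluster of the family, miR-200c reached 9.25, miR-200c* 16.8 and miR-141 7.5 units.

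miR-142-5p, a miRNA of blood cells, was measured in Hca-P alone. It read 23.2 ± 16.2 units in Hca-F, 59.2 ± 31.5 in Hca-P, 4.25 ± 1.5 in H22 and 1.25 ± 1.26 in Hepa1-6. In Hca-P 3 spots read 74 to 76 and the other 12, and in Hca-F the spots ran from 8 to 44, so these lines overlap, while H22 and Hepa1-6 had no spot over 6. Its level in Hca-P was at least 1.10-fold that in H22 and 1.21-fold that in Hepa1-6, both within 2 combined spot SDs, and no bound against Hca-F could be given. miR-142-3p also read highest in Hca-P, with 6 units in Hca-F, 32 in Hca-P, 8.75 in H22 and 0.25 in Hepa1-6. Its Hca-P spots ran from 14 to 58, and 57 of the 113 members never measured read highest in that line. Of 5 leukocyte miRNAs with a probe, miR-142-5p was the 1 that was measured. Their mean intensity, miR-142-5p and miR-142-3p included, was 14.8 units in Hca-F, 25.6 in Hca-P, 14.6 in H22 and 2.7 in Hepa1-6, and none was at 0 in every line. miR-223, a myeloid miRNA, reached at most 22.8 units (Hca-F), miR-150 of lymphocytes at most 11 (Hca-P) and miR-155 of activated leukocytes 43.8 (H22). The part of leukocytes in these values was not tested, and in bulk RNA fewer cells of a type and less RNA per cell cannot be told apart.

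**Figure D2:**
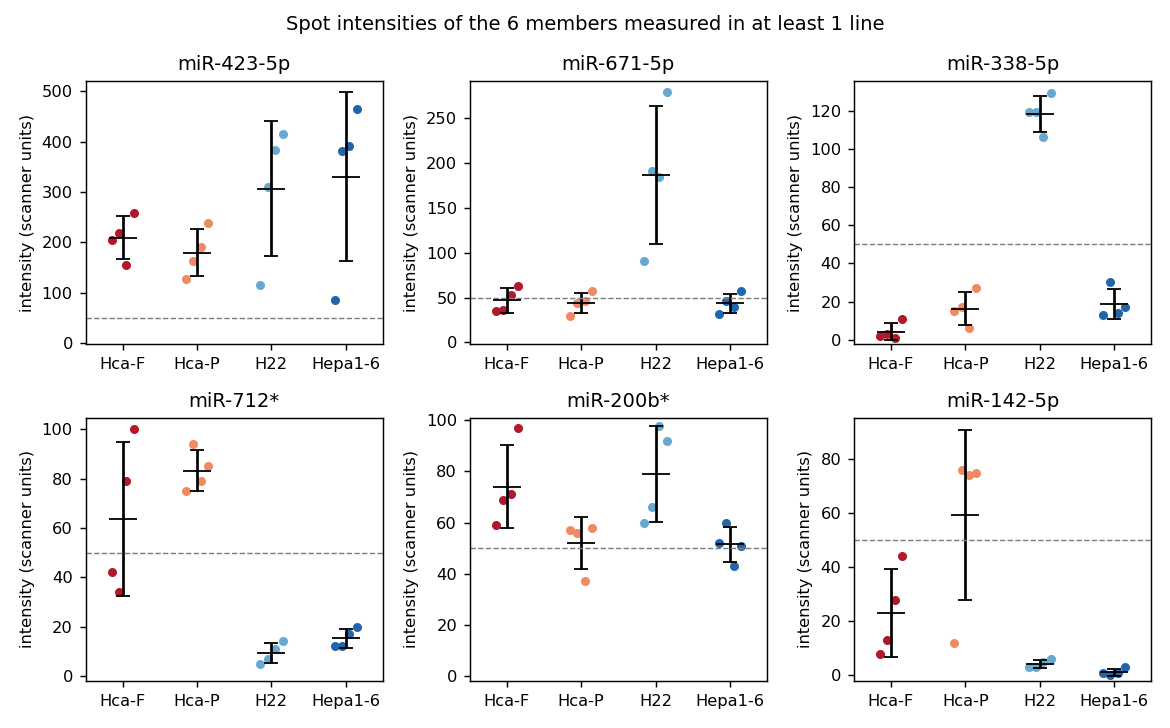
Background-subtracted intensity (vertical axis, scanner units) of the 6 measured members in Hca-F, Hca-P, H22 and Hepa1-6. Points are the 4 spots of an array, the horizontal mark with bars their mean ± SD, and the dashed line the minimum of 50. The means of miR-671-5p and miR-338-5p stand above the dashed line in H22 alone, that of miR-712* in Hca-F and Hca-P, and that of miR-142-5p in Hca-P.

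A further 5 members came closest to the minimum without reaching it. miR-338-3p reached 48 units (Hepa1-6) and miR-297b-5p, of the Sfmbt2 cluster, 45 (Hepa1-6). miR-325* read 7.5 units in Hca-F, 10.5 in Hca-P, 43.5 ± 21.4 in H22 and 22.5 in Hepa1-6. miR-324-5p read 25.5 units in Hca-F, 20.5 in Hca-P, 39 ± 22.7 in H22 and 11.5 in Hepa1-6. miR-34b-5p, of the p53-induced miR-34 family, read 1 unit in Hca-F, 3.75 in Hca-P, 37.5 ± 7.85 in H22 and 3 in Hepa1-6. Its H22 spots ran from 28 to 47 and those of the other lines from 0 to 6. Just inside the minimum lay miR-142-5p, miR-200b* and miR-712*, with highest values of 59.2, 79 and 83.2 units.

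Pairs of lines were compared over members measured in at least 1 of the 2, with values under 50 set to 50, so that a fold against them is a bound. Since a line has a single array, pairs were described and not tested. A 2-fold difference or more was called. None of 4 members was called between Hca-F and Hca-P, against 23.5% of all mouse miRNAs tested higher and 12.9% lower. Between Hca-P and H22, 2 of 6 were lower and none higher, against 34.7% lower and 15.3% higher in the background. Between Hca-F and H22, 2 of 5 were lower and none higher, against 17.9% and 14.7%. None of 3 was apart between Hca-F and Hepa1-6 (background 37.0% called, 27.2% higher and 9.88% lower), and none of 4 between Hca-P and Hepa1-6 (background 56.2% called, 31.5% higher and 24.7% lower). Between H22 and Hepa1-6, 2 of 4 were higher and none lower, against 33.7% and 3.26%. The 2 members in each of the 3 comparisons that hold calls were miR-671-5p and miR-338-5p, and all 3 comparisons share the H22 array. With so few members, these shares are not read as apart from the background.

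The median log2 fold over 6 members was -0.80 between Hca-P and H22, against -0.62 over all 98 miRNAs tested. Between Hca-F and H22 it was -0.37 over 5 members, against -0.09 over 95. Between H22 and Hepa1-6 it was 1.07 over 4 members, against 0.31 over 92. In these 3 pairs miR-671-5p and miR-338-5p entered through H22 alone, where they are high, and their folds are bounds. The member medians thus lean on the filter and are not read as apart from those over all miRNAs. Between Hca-F and Hca-P the median over 4 members was 0.27, against 0.45 over 85. Between Hca-F and Hepa1-6 it was 0.67 over 3 members, against 0.40 over 81. Between Hca-P and Hepa1-6 it was 0.16 over 4 members, against 0.07 over 89. These medians moved with the scaling: the one over all miRNAs between H22 and Hepa1-6 was -0.55 with the 75th percentile of mouse probes as the factor and -0.35 after quantile normalization. The signs of miR-671-5p and miR-338-5p in these 3 comparisons did not turn under any setting tried. Their log2 folds between H22 and Hepa1-6 were 1.18 to 2.09 for miR-671-5p and 0.52 to 1.91 for miR-338-5p. Both members entered through H22, and lower values were mostly raised to the minimum, so these signs were largely set beforehand. That they did not turn is therefore not read as stability. The calls of miR-338-5p did depend on the scaling: with the 75th percentile its log2 fold was -0.86 between Hca-P and H22 and -0.50 between Hca-F and H22, while miR-712* was then called higher in both, at 1.12 and 1.09.

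**Figure D3:**
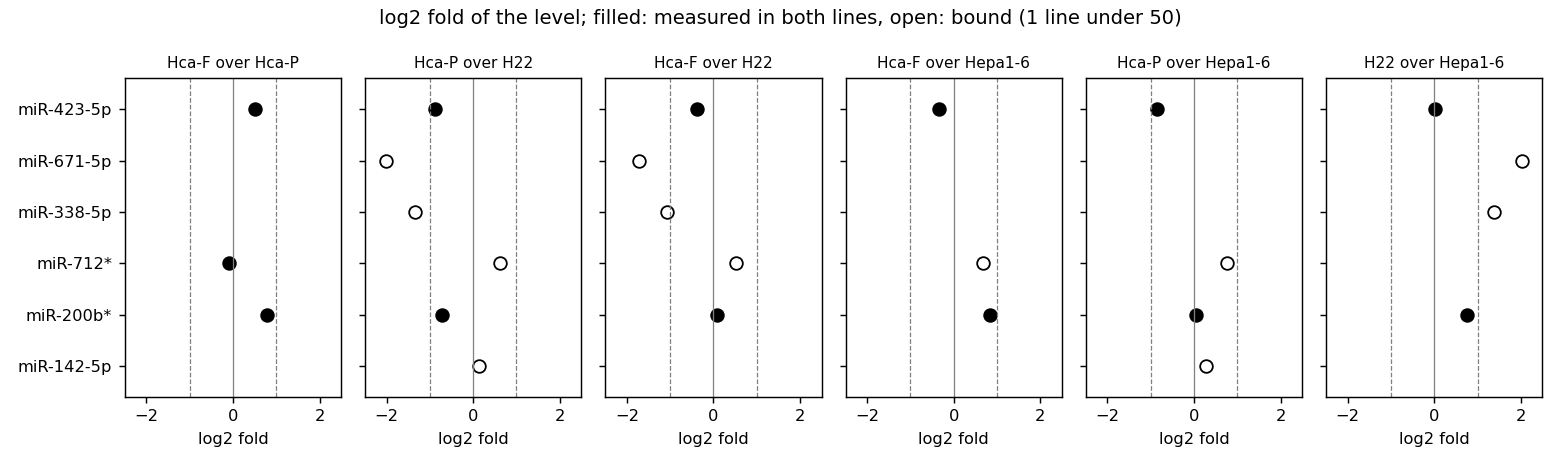
log2 fold of the level (horizontal axis) of the 6 measured members in each pair of lines, the first-named line over the second. Filled points were measured in both lines, open points are bounds, dashed lines mark 2-fold, and a member with no point was measured in neither line or has no bound. Points beyond the dashed lines belong to miR-671-5p and miR-338-5p in the 3 comparisons with H22.

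The lines with lymphatic metastasis were also set against those without, with each line as 1 of 2 samples of its class, in limma over the 103 miRNAs measured in at least 1 line. None of the 6 members passed an adjusted p of 0.05, where 1.94% of the 103 did, and none of the 6 had an unadjusted p under 0.05. miR-712* had the highest difference of the 6, a log2 value of 0.65 ± 0.44 (SE) with a limma adjusted p of 0.651. It entered only through the 2 lines with metastasis, and both lines without were set to the floor. That the former lay above the latter therefore adds no support for a class difference. miR-671-5p had -0.85 ± 0.60 (limma adjusted p = 0.651), miR-423-5p -0.61 ± 0.88 (0.859) and miR-338-5p -0.52 ± 0.47 (0.796). miR-142-5p had 0.22 ± 0.31 (limma adjusted p = 0.859) and miR-200b* 0.06 ± 0.48 (0.964). Values set to the floor enter 4 of these 6 differences. With no minimum the difference of miR-712* was 2.72 (limma adjusted p = 0.184), that of miR-142-5p 4.11 (0.077), that of miR-338-5p -2.39 (0.475) and that of miR-671-5p -0.89 (adjusted p = 1). The lines are not independent samples, as H22 is the parent of both lines with metastasis. How a spot departed from the mean of its probe went together at r = 0.769 between Hca-F and Hca-P and at 0.653 between H22 and Hepa1-6, and at 0.115 to 0.174 in the other pairs (log2 values of the 4 spots of 57 to 66 probes measured in both). The metastasis classes and these pairs of arrays cannot be told apart.

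For 85 members the opposite arm had a probe, which gave 67 hairpins. Probes differ in affinity, so the intensities of both arms are given side by side against the minimum and do not say which arm was the more abundant. No hairpin had both arms measured in any line. The member alone was measured in 6 hairpins, those of the 6 members above, the opposite arm alone in 15, and neither arm in 46. This split depends on the choice of rows, which left out miR-129-5p, miR-675-5p and miR-693-5p, here counted as opposite arms. It also depends on the minimum. miR-200b* and miR-200b read 51.5 and 47.5 units in Hepa1-6, and miR-142-5p and miR-142-3p 59.2 and 32 in Hca-P. With a minimum of 30 both arms of these hairpins would count in the same line. Those of miR-338 would count in different lines, at 118 units for miR-338-5p (H22) and 48 for miR-338-3p (Hepa1-6). Among 5 further hairpins, of left-out rows whose other arm is no member, 1 had both arms measured, that of miR-125b, and never in the same line. In that of miR-125a only the 5p arm was measured. In those of miR-183*, miR-467b* and miR-99b* the starred arm alone was measured, at up to 1521 (H22), 567 (Hepa1-6) and 131.5 units (Hepa1-6). Their unstarred arms reached at most 27, 8.5 and 20.5 units, so the split between starred and unstarred arms depends on the choice of rows.

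In 12 of the 15 hairpins the measured arm was the unstarred partner of a starred member. let-7d, of the tumour-suppressing let-7 family, read 142.25 units in Hca-F, 1569 in Hca-P, 2006 in H22 and 76.2 in Hepa1-6. Its star strand let-7d* read 6 units in Hca-F, 15.2 in Hca-P, 27.8 in H22 and 20.2 in Hepa1-6, and both arms had their highest value in H22. miR-7a, a neuroendocrine and islet miRNA, read 600 units in Hca-F, 396 in Hca-P and 552 in Hepa1-6 and was lowest in H22, while miR-7a* stayed at 1.75 to 5.75. miR-17, of the growth-promoting miR-17-92 cluster, read 167 units in Hca-F, 478 in Hca-P, 120 in H22 and 40.8 in Hepa1-6, and miR-17* stayed at 10.2 to 16.5.

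Another 9 starred members were of this kind. miR-22* reached 8 units where miR-22 reached 271 (H22), and miR-378* 6 where miR-378 reached 265 (H22). let-7i* reached 9.75 and let-7i 418 (H22), miR-106b* 15.5 and miR-106b 158 (Hca-P), and miR-18a* 10.5 where miR-18a had its highest value in Hca-P. miR-93*, miR-214*, miR-31* and miR-322* reached 8.25, 10, 9 and 3.75 units, with 99.2, 97.5, 76.8 and 78 for their unstarred arms. In the other 3 hairpins the unmeasured arm was the 3′ one, which follows from the choice of rows, since it left out their measured 5p arms. miR-129-3p reached 11.5 units beside 1576 for miR-129-5p (Hca-P), miR-675-3p, processed from the imprinted H19 RNA, 6 beside 529 for miR-675-5p (Hca-P), and miR-693-3p 5.5 beside 268 for miR-693-5p (H22). Over the 15 unmeasured arms the highest value in any line ran from 3.75 to 27.8 units with a median of 9, and 14 of them stayed under 20. Both arms had their highest value in the same line in 5 of the 15, which is not read as a result about the arms. The unmeasured arms are dim, and of all 113 members never measured 57 read highest in Hca-P.

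**Figure D4:**
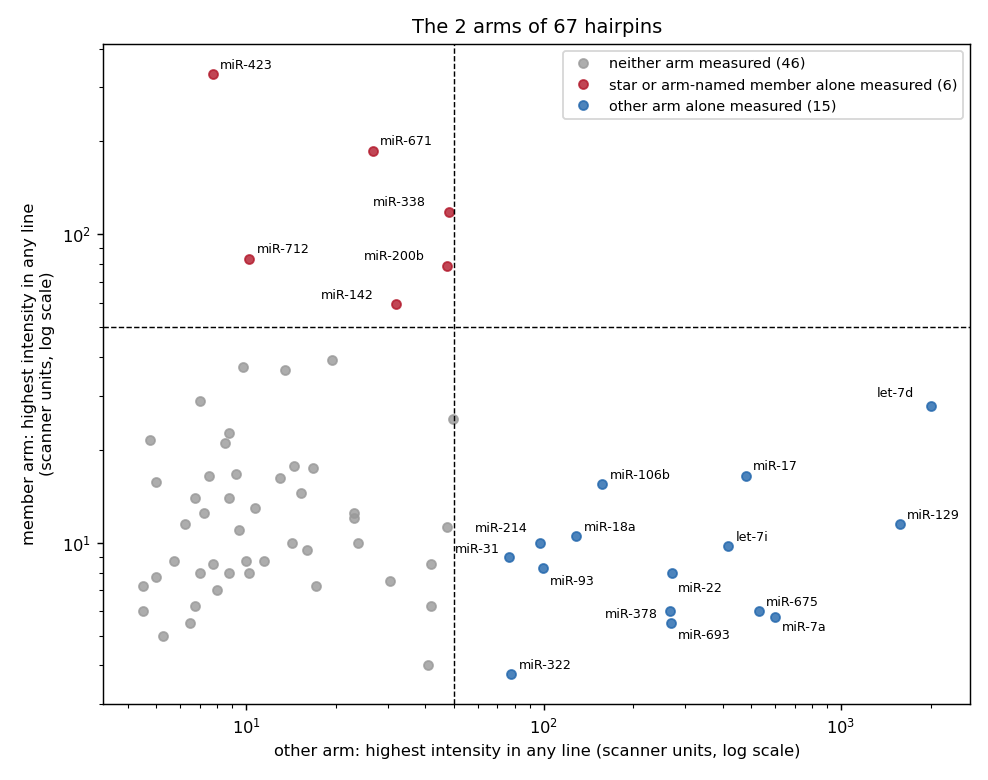
Highest intensity in any line (scanner units, log scales) of the member arm (vertical axis) and the opposite arm (horizontal axis) of 67 hairpins. Where both arms are members, the vertical axis holds the brighter. Dashed lines mark the minimum of 50. Red points are the 6 hairpins with only the member measured, blue points the 15 with only the opposite arm measured, grey points the 46 with neither, and the upper right field is empty.

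Grouped by family or cluster, most lists held no measured member. As only 5.04% of all 119 members were measured in any line, small lists without a measured member are not unusual. Such lists are not read as apart from the members as a whole. In the imprinted Dlk1-Dio3 cluster, a large miRNA group expressed from the maternal chromosome, none of 17 members was measured, and the highest, miR-433*, read 37 units (Hca-F). None of 6 star strands of the miR-17-92 cluster and its paralogs was measured (at most 17.5 units, miR-20b*), and none of 4 of let-7 (27.8, let-7d*). The embryonic stem cell cluster miR-290 to miR-295 gave 27.2 units at most (miR-291b-5p in Hca-P), the X-linked testis clusters 16.8, the neuronal members miR-9* and miR-129-3p 16.5 and the hepatocyte star strands miR-101a* and miR-148a* 8.75. The miR-23-27-24 clusters gave 25.2 units (miR-27a*), the miR-199 and miR-214 group 11.5, the miR-30 family 10, the miR-302 cluster 8 and the miR-181 family 8. Lists with a measured member were the leukocyte list, by miR-142-5p out of 2, and the miR-200 family, by miR-200b* out of 3. All these counts cover members only. The choice of rows left out miR-770-3p of the Dlk1-Dio3 list and miR-129-5p of the neuronal list. Of the Sfmbt2 list it left out miR-466d-3p and the miR-467 rows, miR-467b* among them. All of these rows were measured, miR-129-5p at up to 1576 units (Hca-P) and miR-467b* at up to 567 (Hepa1-6). The absence of measured members in those lists thus follows in part from the choice.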

How the data were processed

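The authors deposited 3 kinds of linear intensity for each array: foreground, background-subtracted and normalized. Per the labels, spots were read with a GenePix 4000B scanner and GenePix Pro, replicate spots were averaged, and each array was divided by its median over miRNAs at 50 or more in all samples. The deposited background-subtracted intensity equalled the mean of 4 spots, and the normalized intensity that mean divided by 324.5 (Hca-F), 396.25 (Hca-P), 367 (H22) or 403.75 (Hepa1-6), the medians over 65 mouse and miRPlus probes. The sources used here do not name the release behind the probe names.

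Levels were recomputed from the spots. Of 2 probes with 1 name the brighter was kept, leaving 414 miRNAs. Values under 50 were set to 50 before scaling. limma 3.58.1 (lmFit, eBayes with trend, Benjamini-Hochberg, two-sided) was tested on simulated data. Sequences are from RefSeq (GRCm38.p6). Members and lists were chosen with earlier results of these data known. Named are all members measured in any line, the 5 brightest never measured, opposite arms and marker miRNAs; miR-433*, miR-20b*, miR-291b-5p and miR-27a*, named as the brightest of a list, were chosen after their values were seen. Hca-F, Hca-P, H22 and Hepa1-6 have 1 array each, and this number limits the precision. Alternatives covered scaling, minimum, background correction, spot summary, fold threshold and left-out lines.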

Additional observations from a re-analysis of the deposited data

How the results depend on the processing

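With a detection minimum of 30, 15 members were measured in any line (6 in Hca-F, 7 in Hca-P, 9 in H22 and 6 in Hepa1-6), and with 100 it was 3 (1 each in Hca-F, Hca-P and Hepa1-6). At 2-fold, members called between Hca-P and H22 numbered 2, all lower, against 4 with a minimum of 30 (2 higher), 3 with the median of spots (all lower) and 1 after quantile normalization or normexp. Between Hca-F and H22 the 2 became 1 after quantile normalization or normexp and 3 with a minimum of 30 (1 higher). In both pairs the 75th percentile of mouse probes also gave 2, but 1 higher (miR-712*) and 1 lower, without miR-338-5p. Between Hca-F and Hepa1-6 the 0 became 1 with a minimum of 30. Between Hca-P and Hepa1-6 the 0 became 1 with the 75th percentile, a minimum of 100 or the median of spots, and 2 with a minimum of 30. Between H22 and Hepa1-6 the 2 became 1 with quantile normalization, the 75th percentile, a minimum of 100 or normexp. A threshold of 1.5-fold gave 1 between Hca-F and Hca-P, 5 between Hca-P and H22, 2 between Hca-F and Hepa1-6 and 2 between Hca-P and Hepa1-6. A threshold of 3-fold gave 1 in each of the 3 comparisons with H22. A higher minimum leaves fewer members measured and a higher threshold fewer called by construction, and for the other changes the cause was not tested. limma passed 0 members under every other setting. Leaving out a line also gave 0, but it leaves 1 class with a single array, assumed to vary like the other class, so it says nothing about stability. At an unadjusted p under 0.05 that count was 4 with a minimum of 30, 3 without a minimum, 1 after quantile normalization and 1 without Hepa1-6. Without Hepa1-6 the limma differences of miR-671-5p and miR-338-5p were -1.87 and -1.21. No paired analysis was possible because each line has 1 sample and shares no replicate numbers beyond 1.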
